A study of Homo sapiens with 12 samples.

Results

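The genes described here are the expressed ZNF genes of HEK293E cells, an established human line of embryonic kidney origin. They were chosen by symbol (ZNF, a number and at most 1 letter) and by level, with a normalized expression value that averaged at least 200 over the 6 input libraries. Of 17520 genes measured, 483 carried such a symbol, 236 reached the mean of 200, 246 did not, and 1 was left out by the rule. Since the genes were selected on their mean level, that level is no result, whereas the difference between treatments was not used. Just inside the threshold lay ZNF720, ZNF697 and ZNF70 with means of 200, 200.17 and 202.17, and just outside lay ZNF813, ZNF362 and ZNF77 with 199, 197.83 and 196.5.

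All cells were starved of serum overnight. The insulin+Torin1 groups were pretreated with 250 nM Torin1, which blocks the kinase activity of mTOR, and given 200 nM insulin for 30 h, and the insulin groups received the same insulin without Torin1. Poly(A)-selected RNA was sequenced as input (mRNA) or taken through miCLIP, in which an antibody that recognises the RNA mark N6-methyladenosine (m6A) is fixed to the RNA by ultraviolet light, and the crosslink later shows as base substitutions at methylated adenosines. The 12 samples formed 4 groups of 3 replicates. The labels call the replicates biological but do not say whether they were separate cultures, so p-values measure the spread between these samples in 1 cell line.

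Most ZNF genes encode proteins with C2H2 zinc fingers, each a small fold around a zinc ion that typically reads a few bases of DNA. Most human ZNF proteins are KRAB zinc finger proteins, in which tandem fingers follow a KRAB domain that recruits the co-repressor TRIM28 and, through it, the histone methyltransferase SETDB1 to retroelements and other targets. The genes lie in clusters, many of them on chromosome 19, that arose by tandem duplication, and a smaller set of ZNF proteins acts in RNA handling, chromatin complexes or at promoters. mTOR is the kinase through which insulin and nutrients drive protein synthesis and growth.

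The m6A sites of the study carry a 5-base sequence of the form DRACH, in which D stands for any base but C, R for a purine and H for any base but G, with the methylated A in the middle. A few sites lay near the start of a gene where the reference sequence could be read (RefSeq, GRCh38.p14), and they are shown because they place the listed 5-mer, in capitals, in its sequence. The ZNF276 site at chr16:89721304-89721328 (plus strand) and the ZNF503 site at chr10:75401949-75401973 (minus strand) were in the lists of both treatments. The ZNF503 site lay upstream of the annotated gene body (75279725 to 75401916), so it is not among the sites counted below. The ZNF711 site at chrX:85244016-85244040 (plus) and the ZNF514 site at chr2:95159551-95159575 (minus) were in the insulin+Torin1 list only. The ZNF483 site at chr9:111525193-111525217 (plus) and the ZNF576 site at chr19:43596491-43596515 (plus) were in the insulin list only.
ZNF276: tctccctggaGGACTcgtcgtgagg
ZNF503: tcgagggaggGGACAcacagggggg
ZNF711: tcgggctgcgGAACCtcggaaaccc
ZNF514: gagcgttcggAGACTgcgggcgcgc
ZNF483: actcgctgcgGGACAagcttctgga
ZNF576: gggggccctgAGACTgagtggtccc
At the ZNF276 site 5 of 26 reads carried a substitution with Torin1, against 1 of 16 with insulin. At the ZNF503 site the counts were 2 of 104 and 1 of 27. The 4 sites in a single list rested on 1 of 159 reads (ZNF711), 1 of 10 (ZNF514), 2 of 2 (ZNF483) and 3 of 17 (ZNF576). For ZNF514, ZNF483 and ZNF576 the list that held the site was that of the treatment with more of the gene's mRNA, and the same was true of ZNF711. Other sites near a gene start did not follow this. In ZNF134, with more mRNA under Torin1 (log2 fold change 1.40), a site was in the insulin list only. In ZNF254, with less mRNA under Torin1 (−0.75), a site was in the insulin+Torin1 list only.

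Library totals were 11418114 to 11438881 normalized units with insulin+Torin1 and 12424643 to 12528454 with insulin. The tables hold values that the authors normalized and rounded, so the number of reads behind a value is not given in the sources used here. Of the whole numbers between 1 and 99, insulin+Torin1 replicates 1, 2 and 3 lacked 0, 3 and 28, and insulin replicates 1, 2 and 3 lacked 41, 27 and 5, so that the libraries differed in how finely low values are resolved. Vimentin (VIM), which HEK293 lines express, averaged 7922 with insulin+Torin1 and 2915 with insulin, whereas PAX2, a kidney lineage marker often reported in these lines, averaged 9.33 and 8. The leukocyte gene PTPRC averaged 0.333 in each treatment. Of the marker lists, 6 of 8 genes of HEK293 lines reached the level at which genes were tested. So did 1 of 7 genes of differentiated kidney, 3 of 7 of blood and 2 of 8 of fibroblasts and endothelium. In bulk RNA, fewer cells that express a gene and less of its RNA per cell cannot be told apart.

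The mRNA of expressed ZNF genes was lower with Torin1 more often than it was higher. The 236 genes together made up 1.25%, 1.25% and 1.25% of all normalized units in the 3 insulin+Torin1 libraries, against 1.51%, 1.53% and 1.51% in the 3 insulin libraries, and the groups did not overlap. By limma on log2(value + 1), with Benjamini-Hochberg adjustment over the 13842 genes tested and an adjusted p under 0.05, 75 of the 236 were higher with Torin1, 140 were lower and 21 were not called. The background is large, since 43.4% of all genes tested were called higher and 42.5% lower. Among the 9188 genes with a mean of at least 200, 40.7% were called higher and 48.6% lower, so the 31.8% of ZNF genes called higher and 59.3% called lower are to be read against those shares. The median log2 fold change was −0.36 over the ZNF genes, 0.02 over all genes tested and −0.08 over the other 8952 genes of at least 200.

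A stricter test asked limma for a change beyond 1.5-fold at the same adjusted p. It called 32 ZNF genes higher and 88 lower, or 13.6% and 37.3%, against backgrounds of 25% and 22.5% of all genes tested and 21.2% and 24.4% of the genes of at least 200. The values of the 3 insulin+Torin1 libraries all lay above the 3 insulin libraries in 75 ZNF genes and all below in 139. Of all genes tested 43.5% and 42.8% did so, and of the genes of at least 200, 40.8% and 48.8%. Fold changes ran from −2.74 to 3.58 on the log2 scale, with quartiles at −1.14 and 0.34. A change of more than 1 log2 unit upward was found in 26 genes and downward in 67. In 60 of the genes the mean reached 200 in only 1 treatment, which such genes can do only by differing. Of the 176 that reached it in both, 51 were called higher and 104 lower, with a median of −0.32, and 15 were higher and 59 lower beyond 1.5-fold.

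**Figure D1:**
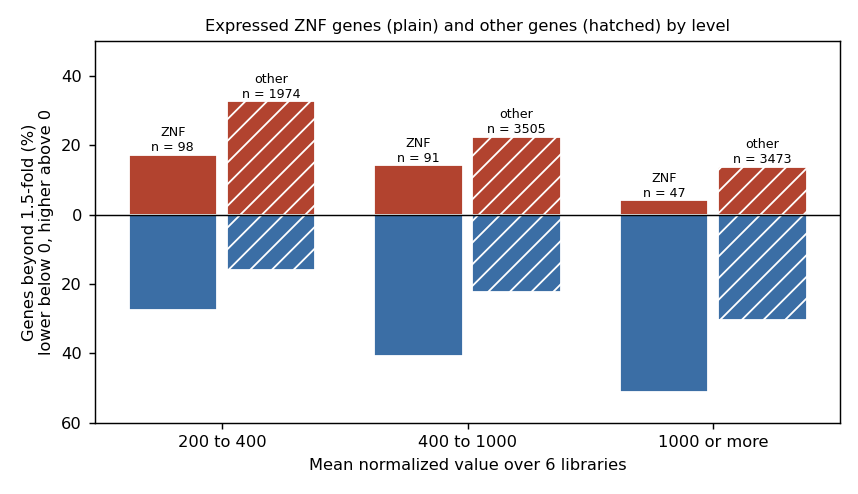
Percentage of genes called beyond 1.5-fold with Torin1 (bars above 0 higher, bars below 0 lower) for expressed ZNF genes (plain bars) and other genes (hatched bars), in 3 ranges of the mean normalized value over 6 libraries. In each range a smaller share of ZNF genes than of other genes was higher and a larger share was lower, with 24 of 47 ZNF genes lower at 1000 or more.

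The share of lower calls was larger at higher values, in ZNF genes and in other genes. Between 200 and 400, 17 of 98 ZNF genes were higher beyond 1.5-fold and 27 lower, against 647 and 316 of 1974 other genes. Between 400 and 1000 the counts were 13 and 37 of 91 ZNF genes, against 788 and 782 of 3505 other genes. At 1000 or more they were 2 and 24 of 47 ZNF genes, against 480 and 1058 of 3473 other genes. The median log2 fold changes in these 3 ranges were −0.22, −0.35 and −0.76 for ZNF genes and 0.25, −0.03 and −0.28 for other genes. Of the 246 ZNF genes under 200, 188 had enough signal to be tested, and 109 of these were called higher with Torin1 and 42 lower, with a median of 0.59. The 4466 other tested genes under 200 gave 2158 higher and 1381 lower, with a median of 0.34. Lower calls thus outnumbered higher calls among ZNF genes above the threshold of 200, while below it higher calls outnumbered lower ones.

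Among the genes that rose, ZNF462, a large protein linked to chromatin organisation, had values of 412, 454 and 418 with insulin+Torin1 and 43, 32 and 31 with insulin. All 3 Torin1 libraries lay far above the insulin libraries, with an 11.9-fold higher value and a log2 fold change of 3.58 ± 0.13 (SE; limma adjusted p = 1.6e-17). ZNF37A, a KRAB zinc finger gene, had 1322, 1251 and 1272 with insulin+Torin1 and 209, 201 and 203 with insulin (2.64 ± 0.06). ZNF589 had 645, 628 and 669 against 104, 116 and 105 (2.57 ± 0.08). The groups were far apart in both genes, and replicates of a treatment lay close together. ZNF532, a partner of the chromatin reader ZMYND8, had 563, 566 and 568 against 119, 109 and 98 (2.37 ± 0.09). ZNF703, a transcriptional co-repressor that is amplified in luminal breast cancer, had 3556, 3907 and 3635 against 1185, 1100 and 1068 (1.73 ± 0.04). The 10 largest rises also included ZNF780A, ZNF581, ZNF280D, ZNF33B and ZNF780B, with log2 fold changes of 2.33, 1.97, 1.90, 1.79 and 1.73. Several of these genes, among them ZNF462, ZNF589, ZNF532, ZNF581, ZNF280D and ZNF780B, reached the mean required for selection only with insulin+Torin1. Such genes could be selected only by differing, so their gap partly follows from the selection. ZNF37A, ZNF33B and ZNF703 reached that mean in both treatments.

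The largest fall was in ZNF850, on chromosome 19 at 36743480 to 36772807 (GRCh38, minus strand), with 99, 89 and 97 with insulin+Torin1 and 700, 644 and 586 with insulin (−2.74 ± 0.09). ZNF280B had 265, 267 and 287 against 1778, 1754 and 1781 (−2.69 ± 0.05). ZNF778 had 105, 129 and 120 against 744, 761 and 682 (−2.62 ± 0.08). In each of these genes the highest Torin1 library lay far below the lowest insulin library. ZNF3, on chromosome 7, had 440, 441 and 429 against 2234, 2220 and 2203 (−2.34 ± 0.04; limma adjusted p = 1.8e-22). ZNF367 had 910, 894 and 875 against 3997, 4382 and 3954 (−2.20 ± 0.04). ZNF483, ZNF543, ZNF2, ZNF557 and ZNF653 completed the 10 largest falls, with log2 fold changes of −2.54, −2.52, −2.25, −2.22 and −2.19. ZNF850, ZNF778, ZNF483, ZNF543, ZNF2 and ZNF653 reached the mean required for selection only with insulin, so their gap also partly follows from the selection. ZNF280B, ZNF3, ZNF367 and ZNF557 reached that mean in both treatments.

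**Figure D2:**
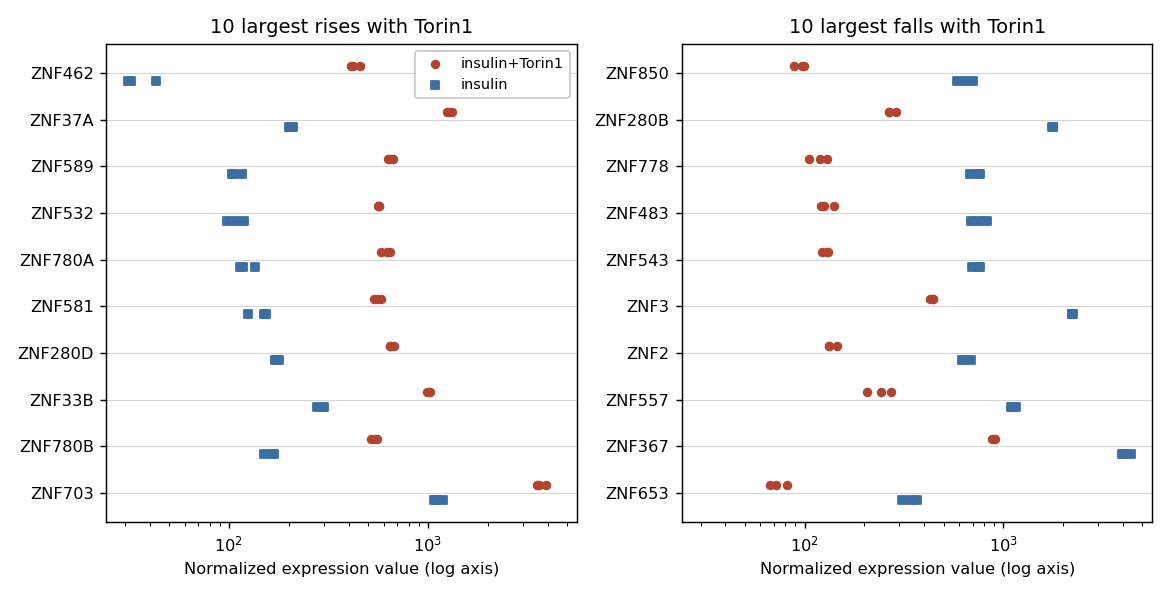
Normalized expression value (horizontal log axis) in each of 3 insulin+Torin1 libraries (circles) and 3 insulin libraries (squares) for the 10 ZNF genes with the largest rises (left) and the 10 with the largest falls (right). The 20 genes were picked among called genes whose treatments do not overlap, so the lack of overlap follows from the choice. ZNF462 shows the widest gap, with 412 to 454 against 31 to 43.

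Members of one numbered family did not always share a direction. ZNF280B and ZNF280C fell, by 2.69 and 1.61 on the log2 scale, while ZNF280D rose by 1.90, with values of 642, 645 and 673 with insulin+Torin1 against 170, 175 and 179 with insulin. The KRAB genes ZNF33A and ZNF33B both rose, by 0.25 and 1.79, and so did ZNF780A and ZNF780B, by 2.33 and 1.73. ZNF512 rose by 0.35 and ZNF512B fell by 0.39. Reads of genes with near-identical finger sequences can be placed on the wrong copy, and how far this touched the values of such families was not tested.

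The genes with the highest mean values went in different directions. The values are not divided by transcript length, so their order is not an order of transcript number. ZNF711, which binds promoters and recruits the histone demethylase PHF8, had 7621, 7367 and 7340 with insulin+Torin1 and 3578, 3783 and 3738 with insulin (1.01 ± 0.03). ZNF644, a partner of the histone methyltransferases G9a and GLP, had 2173, 2235 and 2135 against 5373, 5771 and 5460 (−1.34 ± 0.04). The groups did not overlap in either gene. ZNF207 (BuGZ), which loads the checkpoint protein BUB3 at kinetochores, had 3383, 3503 and 3383 against 3643, 3593 and 3390, and was not called (−0.05 ± 0.04; limma adjusted p = 0.194). It was called higher with equal totals (0.077) and with quantile normalization (0.26), so its direction rests on the scaling, and it was called lower without insulin replicate 3 (−0.080). ZNF664 had 3615, 3697 and 3587 against 2817, 2862 and 3007 (0.33 ± 0.03). ZNF503, a developmental co-repressor and paralog of ZNF703, had 3514, 3536 and 3613 against 2519, 2262 and 2281 (0.60 ± 0.04), and like ZNF703 it was higher in every Torin1 library.

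Of 8 expressed ZNF genes with roles in RNA, ribosomes or translation, 6 were called lower, 1 higher and 1 was not called, with a median log2 fold change of −0.33, where 48.6% of genes of at least 200 were lower and 40.7% higher. ZNF622, the human counterpart of a yeast factor of large ribosomal subunit maturation, had 279, 299 and 292 with insulin+Torin1 and 686, 669 and 635 with insulin (−1.19 ± 0.06). ZNF598, the ubiquitin ligase that marks collided ribosomes, had 785, 861 and 851 against 1466, 1415 and 1339 (−0.76 ± 0.05). Both were below their insulin values in all libraries, and they were the only genes of the list lower beyond 1.5-fold. ZNF830, associated with the spliceosome, fell by 0.59, ZNF346, which binds dsRNA, by 0.35, and ZNF326, of a complex that links RNA polymerase II to splicing, by 0.32, a call that was lost with quantile normalization (−0.0036). ZNF106 fell by 0.10, a direction that turned with equal totals (0.02) and with quantile normalization (0.20). ZNF638, which binds RNA and silences unintegrated retroviral DNA, rose by 0.13, and ZNF207, described above, belongs to the same list.

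Of 12 expressed ZNF adaptors of chromatin complexes, 5 were called higher, 6 lower and 1 was not called, with a median of −0.09, which is near the 40.7% higher and 48.6% lower over genes of at least 200. ZNF532, ZNF592 and ZNF687 bind one another and ZMYND8, and they moved apart: ZNF532 rose by 2.37 and ZNF592 by 0.34, while ZNF687 fell by 1.02, with values of 1168, 1196 and 1326 with insulin+Torin1 against 2485, 2489 and 2499 with insulin. ZNF827, which recruits the NuRD complex to telomeres in cells without telomerase, rose by 1.15, and ZNF451, a SUMO ligase, by 0.31. ZNF462, described above, is also on this list. ZNF518B, a partner of G9a and of Polycomb complex subunits, fell by 1.39, ZNF644 by 1.34 and ZNF335, of a histone H3 lysine 4 methyltransferase complex, by 1.19. ZNF516 fell by 0.68. ZNF274, a KRAB protein that recruits SETDB1 to the finger-coding ends of other ZNF genes, had 684, 712 and 731 against 872, 793 and 811 (−0.22 ± 0.05), and its call was lost with equal totals (−0.09). ZNF217, of the CoREST complex, was not called (0.04 ± 0.07), although it was with equal totals (0.16).

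Of 9 promoter-binding ZNF factors, 3 were called higher, 5 lower and 1 was not called, with a median of −0.13, where genes of at least 200 had 40.7% higher and 48.6% lower. ZNF143, which activates many promoters of coding genes and small nuclear RNAs, had 761, 696 and 694 with insulin+Torin1 and 1708, 1744 and 1746 with insulin (−1.27 ± 0.05). Its paralog ZNF76 had 712, 687 and 716 against 526, 528 and 554 (0.39), so the paralogs moved in opposite directions without overlap in either. ZNF263 fell by 0.72, and ZNF281 and ZNF384 by 0.61 each. ZNF24 fell by 0.13, a call that was lost with equal totals (−0.0031) and turned with quantile normalization (0.13). That call was also lost without insulin+Torin1 replicate 3 (−0.11) and without insulin replicate 3 (−0.082). ZNF692 rose by 1.21 and ZNF395 by 0.44. ZNF148 had a log2 fold change of −0.09 and was not called (limma adjusted p = 0.0634). It was called lower without insulin+Torin1 replicate 2 (−0.13) and higher with quantile normalization (0.11).

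Of 4 expressed KRAB genes with known retroelement or imprint targets, ZNF248 rose by 1.00 and ZNF202 by 0.32. ZNF91, which in humans represses SVA retroelements, had 212, 246 and 201 with insulin+Torin1 and 290, 273 and 282 with insulin (−0.36 ± 0.09). ZNF445, a regulator of imprinted loci, was not called (−0.07). The 203 genes on none of the role lists had 64 called higher and 122 lower, with a median of −0.40, shares close to those of all 236 genes.

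Genes of the co-repressor machinery of KRAB proteins were called in both directions. Of 20 co-repressor genes listed, 18 were tested, and 9 were higher, 8 lower and 1 not called, with a median of 0.08, which is near the 43.4% higher and 42.5% lower over all genes tested. TRIM28 itself had a mean of 4568 ± 192 with insulin+Torin1 and 4340 ± 253 with insulin (SD, n = 3 each) and was not called. CBX1 (HP1β) rose by 0.75, SETDB1 by 0.51 and CBX3 (HP1γ) by 0.50, while the maintenance DNA methyltransferase DNMT1 fell by 0.93. MPHOSPH8 and PPHLN1, subunits of the HUSH silencing complex, fell by 0.71 and 0.59, their partner MORC2 by 0.64 and the SETDB1 cofactor ATF7IP by 0.61. Of 30 other KRAB or SCAN zinc finger genes without a ZNF symbol that were tested, 8 were higher and 15 lower, with a median of −0.18. Of 30 C2H2 factors outside the ZNF names, 4 were higher and 22 lower, with a median of −0.68.

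On chromosome 19, which held 84 of the 236 genes, 28 were higher and 51 lower (median −0.44), against 47 and 89 of the 152 on other chromosomes (median −0.33). The shares over all 236 ZNF genes were 31.8% higher and 59.3% lower, and over genes of at least 200 they were 40.7% and 48.6%. Clusters were formed from genes less than 500 kb apart (GRCh38). Each holds few genes, and none was tested as a group. In the cluster at 57191500 to 58489533, at the end of the long arm, 10 of 13 genes were lower and 3 higher (median −0.67), and in that at 55476617 to 56427364, 6 of 9 were lower and 3 higher (median −0.66). In the cluster at 51571283 to 53580269, 8 of 13 were lower and 5 higher (median −0.40). In contrast, 5 of 8 genes at 43596392 to 44500522 were higher and 2 lower (median 0.54), and 5 of 7 at 36214723 to 37172695 were higher and 2 lower (median 0.42), although that cluster also holds ZNF850, the largest fall. At 39997060 to 40090943, ZNF780A and ZNF780B rose while their neighbour ZNF546 fell, with 192, 204 and 201 with insulin+Torin1 against 332, 361 and 368 with insulin. Over all chromosomes 40 of the 69 pairs of neighbouring ZNF genes within 100 kb (58.0%) moved the same way, where 54.2% of all 27730 pairs did.

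Promoters were read for the 207 genes that the RefSeq table of GRCh38.p14 held, from 250 bases before to 50 after the start. The ETS motif CCGGAAG, searched on both strands, occurred in 87 of them (42.0%), against 12.2% of the 27305 promoters of the same length in the table and 24.7% of those of other genes with a mean of at least 200. The motif is shown in capitals, as read on the gene's strand, for genes among the largest rises and falls. The windows are chr19:40090920-40090948 (ZNF780A, minus strand), chr16:89217667-89217695 (ZNF778, plus), chr7:100081740-100081768 (ZNF3, minus), chr19:7069636-7069664 (ZNF557, plus) and chr19:11505821-11505849 (ZNF653, minus).
ZNF780A: gcgccagtccaCTTCCGGtctccggggtc
ZNF778: cgccggcccctCTTCCGGcgccggccccg
ZNF3: gaacaaccgacCCGGAAGcgaaacgaggg
ZNF557: accagctggagCCGGAAGcggaggtgcag
ZNF653: gatgcgcgccaCTTCCGGtctggctccta
The median log2 fold change was −0.62 over the 87 ZNF genes with the motif, of which 8 were higher and 41 lower beyond 1.5-fold, and −0.21 over the genes without it. Of other genes of at least 200 with the motif, 14.3% were higher and 28.6% lower beyond 1.5-fold. Over other genes of at least 200 the medians were −0.29 with and −0.03 without it. ZNF780A, which rose, shares the letters with genes that fell. The E-box CACGTG was found in 12 ZNF promoters (5.80%), against 8.77% of all promoters and 13.6% of those of other genes of at least 200. The medians with and without it were −0.70 and −0.40 in ZNF genes and −0.22 and −0.08 in the other genes. The letters TGACGT, which make up one side of the cAMP response element, were found in 34 (16.4%), against 9.64% of all promoters and 15.6% of those of other genes of at least 200, so their share was close to that of other expressed genes. The medians with and without them were −0.59 and −0.39 in ZNF genes and −0.30 and −0.05 in the other genes. The TATA box letters TATAAA were found in 12 (5.80%), against 14.0% of all promoters and 7.45% of those of other genes of at least 200. Here the medians were 0.06 and −0.43 in ZNF genes and −0.05 and −0.10 in the other genes. None of the 4 motifs contains another, and a match is a run of letters and not a measured binding site.

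The m6A lists of the treatments were unequal in make-up, which bears on every count of sites below. Each list names a position once, under 1 replicate. In expressed ZNF genes the insulin+Torin1 list had 1378, 34 and 127 sites under replicates 1, 2 and 3, and the insulin list had 1455, 1082 and 163. Replicate 2 thus gave few sites with Torin1 and many with insulin, while replicate 1, which held the most sites, and replicate 3 gave the lists more similar numbers.

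ZNF genes had 1539 m6A sites in the insulin+Torin1 list and 2700 in the insulin list, a ratio of 0.57, beside 0.652 for other genes with a mean of at least 200. Of the 236 genes 229 had a site in either list, and 172 of these had fewer sites with Torin1, 40 more and 17 equally many, where the backgrounds over genes of at least 200 with a site were 63.8% fewer and 25.4% more. Under replicate 1 alone the ratio was 0.947 for ZNF genes and 1.08 for other genes. There, 105 of 227 ZNF genes had fewer sites with Torin1, 95 more and 27 equally many, beside backgrounds of 35.2% fewer and 51.2% more. The median gene had 5 sites with Torin1 and 9 with insulin. The 7 genes without a site included ZNF280B, ZNF280C and ZNF280D. For 3 of the 7 (ZNF280B, ZNF251 and ZNF623) no strand was known, and without a strand no site could be counted. Sites of ZNF genes had a median of 13 reads with Torin1 and 9 with insulin, and 57.8% and 58.9% of them rested on 1 substituted read, so most are close to the smallest count that a list can hold.

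In both lists stood 800 positions, which were 52.0% of the insulin+Torin1 list (95% Wilson interval 49.5% to 54.5%) and 29.6% of the insulin list (27.9% to 31.4%). Under replicate 1 alone the shares were 34.5% and 32.7%. For other genes the shares were 48.7% and 31.7%. The intervals cover counting error only. Of ZNF sites 28.1% with Torin1 and 25.9% with insulin were no more than 2000 nt upstream of the gene's end in the annotation, beside 32.8% and 31.6% for other genes.

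ZNF711 and ZNF503 had the most sites with Torin1. ZNF711 (chromosome X, 85243991 to 85273357) had 35 with Torin1 and 28 with insulin, and 33 and 21 under replicate 1. ZNF503 (chromosome 10, 75279725 to 75401916) had 33 in each list, and 32 and 23 under replicate 1. Both genes also had more mRNA with Torin1. ZNF687 had 28 and 38, ZNF768 had 24 and 35 and ZNF618 had 23 and 31, while ZNF646, described next, lay between the first of these and ZNF768. ZNF629 tied with ZNF618. Under replicate 1 ZNF687, ZNF768 and ZNF618 had 23 and 23, 23 and 24, and 23 and 17.

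ZNF646 had the most sites with insulin and the largest loss. It lies on chromosome 16 at 31072687 to 31084196 and had 25 sites with Torin1 and 74 with insulin, and 23 and 42 under replicate 1. Its mRNA was 645, 670 and 598 with insulin+Torin1 and 2008, 2097 and 2014 with insulin (−1.68 ± 0.05). ZNF318 had 13 and 51 sites, and 13 and 26 under replicate 1, with an mRNA change of −1.35. ZNF721 had 13 and 46 (11 and 29 under replicate 1; mRNA −2.03), ZNF644 had 12 and 41 (10 and 25; −1.34) and ZNF275 had 7 and 35 (6 and 21; −1.79). The 5 genes were chosen for many insulin sites or a loss of sites, so having fewer with Torin1 partly follows from the choice. The mRNA of all 5 was called lower with Torin1, where 48.6% of genes with a mean of at least 200 were.

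The largest gain was in ZNF780A, with 11 sites with Torin1 and 1 with insulin, and 8 and 1 under replicate 1. ZNF202 had 16 and 8 sites, ZNF7 had 10 and 2, and ZNF776 had 13 and 5. Under replicate 1 these were 14 and 5, 10 and 1, and 11 and 3. The mRNA of all 4 genes was called higher with Torin1, by 2.33, 0.32, 1.04 and 1.34 on the log2 scale. Among genes with a mean of at least 200, 40.7% were called higher.

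The sites with the most substituted reads in each list stood in both lists. In ZNF503 the GGACA site at position 75400014 of chromosome 10 carried 39 substituted of 887 reads with Torin1 and 33 of 309 with insulin. In ZNF768 the TGACT site at position 30524590 of chromosome 16 carried 29 of 393 and 22 of 339. In ZNF703 the AGACT site at position 37698641 of chromosome 8 carried 37 of 696 with Torin1 and was also listed with insulin. The AAACT site at position 75399040 of ZNF503 carried 28 of 1287 and 17 of 290. The AGACA site at position 75399648 of ZNF503 carried 24 of 333 and 17 of 83. Further ZNF503 sites also had 17 substituted reads with insulin. Reads over a site also depend on the amount of its mRNA, so these numbers are no measure of how many copies are methylated.

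Across genes the number of listed sites went with the mRNA. The 31 ZNF genes with a site that were higher beyond 1.5-fold had 255 sites with Torin1 and 169 with insulin, and 222 and 91 under replicate 1. The 86 that were lower had 513 and 1380, and 463 and 762 under replicate 1. The 112 others had 771 and 1151, and 693 and 602 under replicate 1. Other genes gave 9988 and 7505 sites where mRNA was higher and 11392 and 28213 where it was lower. Over the 187 ZNF genes with at least 5 sites under replicate 1, the log2 ratio of sites and the log2 fold change of mRNA had a Spearman correlation of 0.69 and a Pearson correlation of 0.69. This is a description across genes that share the same libraries, and how far the number of sites follows coverage rather than methylation was not tested.

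**Figure D3:**
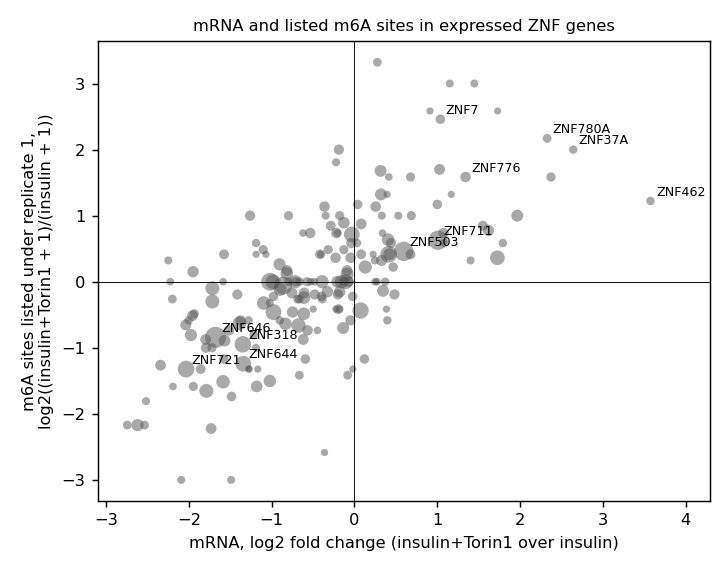
Each point is 1 of 187 expressed ZNF genes with at least 5 m6A sites listed under replicate 1, with the mRNA log2 fold change (insulin+Torin1 over insulin) on the horizontal axis, the log2 ratio of listed sites plus 1 on the vertical axis, and a point area that grows with the number of sites. Points run between lower left (ZNF721, ZNF646) and upper right (ZNF37A, ZNF780A), with a Spearman correlation of 0.69.

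The 5-mers of ZNF sites differed from those of other genes at AAACC. Of distinct ZNF positions 200, or 5.82%, were AAACC, against 1.82% in other genes of at least 200, a ratio of 3.20. They lay in 106 of the genes. By list AAACC made up 64 sites (4.16%) with Torin1 and 149 (5.52%) with insulin, beside 1.55% and 1.61% for other genes. In each of the 6 combinations of list and replicate the share was higher in ZNF genes, at 2.94% to 8.66%, than in other genes, at 1.35% to 1.96%. The 2.94% is that of insulin+Torin1 replicate 2, which had only 34 ZNF sites, so the direction there rests on very few sites. ZNF genes under 200 had 5.03%. Among sites with at least 3 substituted reads the shares were 2.42% in ZNF genes and 0.771% in other genes, so AAACC was less frequent among well supported sites in both. GGACA was the most frequent 5-mer in ZNF genes, with 14.3% of sites with Torin1 and 11.3% with insulin.

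Pairs of listed sites in ZNF genes lay a whole number of finger lengths apart more often than evenly spread distances would give. A C2H2 finger with its linker repeats every 28 residues, or 84 nt of coding sequence. Among the 15368 pairs of sites of the same ZNF gene at most 1000 nt apart, 569 (3.70%) were separated by a whole multiple of 84 nt, where evenly spread distances would give 1.19%. Other genes of at least 200 without a zinc finger symbol had 1.18%, C2H2 factors outside the ZNF names 1.216%, other KRAB or SCAN genes 2.88% and ZNF genes under 200 had 5.92%. Such pairs occurred in 119 of the 225 ZNF genes with a pair. Of all distances between 1 and 1000 nt, the 6 most frequent were 84, 168, 252, 336, 420 and 588 nt, with 98, 88, 66, 60, 56 and 49 pairs.

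**Figure D4:**
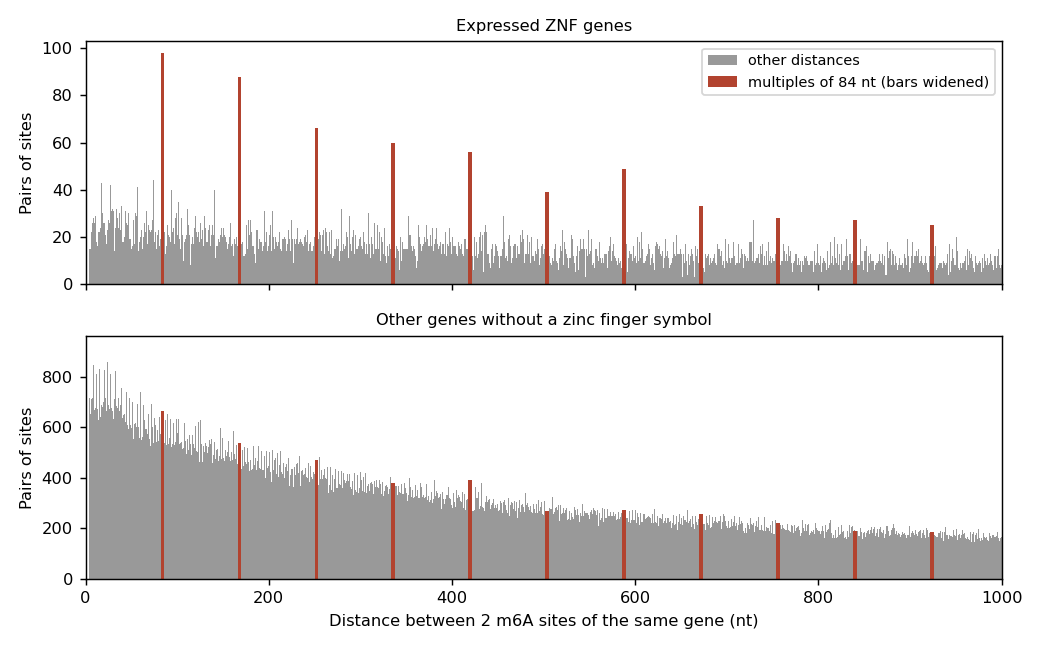
Number of pairs of m6A sites of the same gene (vertical axis) at each distance up to 1000 nt (horizontal axis) in expressed ZNF genes (top) and in other genes without a zinc finger symbol (bottom), with multiples of 84 nt in red and drawn wider. In ZNF genes 84 nt was the most frequent distance with 98 pairs, while in other genes the counts fall with distance and multiples of 84 nt reach little beyond their neighbours.

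The spacing was found in each list, at 2.90% with Torin1 and 3.75% with insulin, and within replicate 1 at 2.90% and 3.54%. It was 5.72% for genes on chromosome 19 and 3.09% for those elsewhere. Pairs in which both sites were AAACC were at a multiple of 84 nt in 103 of 186 cases (55.4%), against 19 of 200 (9.50%) in other genes. Those other genes had a mean of at least 200 and included zinc finger genes without a ZNF symbol, and the 19 pairs came from 5 genes. AGACC pairs were so in 28.6% of cases, GAACT pairs in 25.8% and AGACA pairs in 22.6%, while pairs of the common 5-mer GGACA were so in 1.45%. Without AAACC sites the share was 2.88%. The 186 AAACC pairs came from 35 genes, 26 of which had a pair at a multiple. Pairs within a gene share sites, and ZNF721 alone had 18 AAACC positions. AAACC pairs that were not at a multiple left a remainder of 37 nt in 22 cases and of 47 nt in 21, which add up to 84.

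Some other 5-mers lay at particular places relative to AAACC within the repeat in a minority of pairs, counted in the direction of transcription. AAACA lay 57 nt after AAACC in 70 of 222 pairs (31.5%). AGACA lay there in 64 of 292 (21.9%) and at 36 nt in 57 (19.5%). GAACT lay at 67 nt in 42 of 191 pairs (22.0%). AGACC and AAACT, which differ from AAACC in a single letter, lay at 0, in the place of AAACC in another repeat, in 23 of 73 and 35 of 209 pairs. As background, the linker that joins 2 fingers of a KRAB protein contains Glu-Lys-Pro, and its codons GAG, AAA and CCN hold the letters AAACC. The finger-coding sequence itself was not used here.

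ZNF721, on chromosome 4 at 439988 to 499156, showed the spacing most often. It had 18 AAACC positions, of which 12 lay in the same place of the 84-nt repeat, and 82 pairs of sites at a multiple. Positions in that place included 441794, 441878 and 441962 on the minus strand, which are 84 nt apart, and 442130, 168 nt further. A further AAACC site at 441850, with 3 substituted of 30 reads, lay between them at another place of the repeat. The 4 sites had 2 substituted of 15 reads, 1 of 14, 1 of 14 and 2 of 40, the first of them in the insulin+Torin1 list and the others in the insulin list. In ZNF92, on chromosome 7, 5 of 6 AAACC positions shared a place in the repeat, at 65398627, 65398795, 65399215, 65399383 and 65399551. In ZNF678, on chromosome 1, 4 of 6 did, and in ZNF431, on chromosome 19, 5 of 5. Of the 44 genes with at least 2 AAACC positions, 27 had 2 or more in 1 place of the repeat. These sites rest on few substituted reads. Fingers of a gene and of its relatives are alike in sequence, and how far reads placed on the wrong finger or gene add to the spacing was not tested.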

How the data were processed

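Input RNA and miCLIP libraries of HEK293E cells were analysed from the processed files. The submitters' processing notes name STAR, BWA 0.7.1, DESeq, DESeq2 1.22.2 and the build hg38, with no step for each. The authors deposited 1 expression table whose values, treated here as a score, they had normalized between libraries and rounded, as the values in the file show. No test for raw counts was run. The authors also deposited 1 list of m6A sites per treatment, in which each site has a fraction (substituted reads over all reads), its read count and substituted read count, its replicate and its 5-mer.

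Expression was tested with limma 3.58.1 (R 4.3.3, variance trend) after adding 1 and taking log2, on genes that reached 10 in 3 or more libraries. P-values were two-sided and adjusted by Benjamini-Hochberg over all 13842 genes tested, and the change beyond 1.5-fold was tested with limma's treat. All 236 ZNF genes passed the filter. Fold changes are on that log2(value + 1) scale, on which changes of low genes come out too small. The fit was tested on simulated data. Gene positions, starts and sequences came from RefSeq (GRCh38.p14). Of the table's symbols 97.0% matched, and of the ZNF genes 233 matched by symbol and 3 by an older symbol. Sites were counted in a gene body on the gene's strand, which was known for 207 genes, taken from most of their sites for 26 and missing for 3. On that strand lay 96.2% of the 4406 sites, and 243 sites also lay in another protein-coding gene. In promoter windows 2186 of 2186 sites had their 5-mer at the listed position.

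The genes, lists and tests were chosen with earlier results of these data known. Named genes were the 10 largest rises and falls among called genes with no overlap, the 5 highest means, the members of the role lists, the genes with most sites, gains and losses, and the co-repressor genes with the largest change. Genes outside this rule (ZNF276, ZNF514, ZNF576, ZNF546, ZNF92, ZNF678, ZNF431 and the ZNF512, ZNF33 and ZNF280 families) were chosen after their values were seen. The motifs and the 84-nt spacing were described without a test. Groups by KRAB domain or number of fingers and the place of sites in exons were not analysed here. Alternatives were other pseudocounts (0.5 and 10), filters and scalings, the replicate number as a block, each library left out, and stricter site criteria.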

Additional observations from a re-analysis of the deposited data

How the results depend on the processing

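Without any 1 library the counts of ZNF genes called higher were 73 to 75 and lower 135 to 142, beyond 1.5-fold 31 to 34 and 84 to 88, and the median was −0.37 to −0.34. Scaling to equal totals, which moved the median of all genes by 0.12, gave a ZNF median of −0.23, and quantile normalization gave −0.45. With equal totals 83 genes were higher and 123 lower (39 and 77 beyond 1.5-fold), and with quantile normalization 70 and 138 (29 and 93). With a mean of at least 200 in both treatments (176 genes) the median was −0.32 and 15 genes were higher and 59 lower beyond 1.5-fold. With a mean of at least 100 (317 genes) the median was −0.18, 120 genes were higher and 163 lower, and 60 and 100 beyond 1.5-fold. The replicate number as a block gave 74 higher and 140 lower. Same-numbered replicates did not deviate together (correlations −0.0234, 0.0097 and −0.0040), so the numbers do not pair the samples.

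Signs turned in ZNF207 with equal totals (0.077) and quantile normalization (0.26), in ZNF106 (0.021 and 0.20), in ZNF148 (0.036 and 0.11), in ZNF24 with quantile normalization (0.13) and in ZNF445 with equal totals (0.056). ZNF217 turned with quantile normalization (−0.095), and ranged from −0.0093 to 0.0895 without any 1 library, below 0 without insulin+Torin1 replicate 2 or insulin replicate 3. Of the values of named genes under all alternatives, 891 kept their direction and side of the threshold, 7 lost and 3 gained a call without a change of sign, and 11 changed sign. The cause was not tested.

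Counts of m6A sites depended on replicates. Without any 1 replicate there were 161 to 1505 sites with Torin1 and 1245 to 2537 with insulin, a ratio of 0.13 to 0.93, and 21.1% to 50.8% of Torin1 sites and 2.73% to 33.2% of insulin sites were shared. The ratio was 0.129 without replicate 1 and 0.930 without replicate 2. Replicate 1 alone left 1455 insulin sites, a ratio of 0.947 and 34.5% of Torin1 and 32.7% of insulin sites shared. At least 3 substituted reads left 290 sites with Torin1 and 495 with insulin (34.1% and 20% shared), and at least 10 reads left 903 and 1275 (ratio 0.708, 51.6% and 36.5% shared). The share of pairs at a multiple of 84 nt was 2.10% with at least 3 substituted reads, 2.90% in Torin1 replicate 1, 4.12% in insulin replicate 2 and 2.90% without the 5 genes with most such pairs. These spacing settings were chosen after seeing the data. Depth limits single sites, most of which rest on 1 substituted read.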
